A study of Mus musculus with 22 samples.

Results

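The ubiquitin and proteasome genes of the mouse kidney were followed here through 268 ac4C peaks in 128 genes, out of 9857 peaks in 4909 gene names. Members were chosen by gene symbol alone: ubiquitin-activating and conjugating enzymes (Uba, Ube), RING and TRIM ligases (Rnf, Trim), HECT ligases, cullins with their F-box and Kelch adaptors, deubiquitinases (Usp, Otud) and proteasome subunits (Psma, Psmb, Psmc, Psmd). The symbols also took in the NEDD8 enzymes Ube2m and Uba3, the splicing factor Usp39 and the GTPase-activating protein Usp6nl. Classes were set by symbol as well. Ube2m and Uba3 are thus counted among the E1 and E2 enzymes, and Usp39 and Usp6nl among the deubiquitinases. Kidneys came from 6 male db/db mice and 5 male db/m mice. Both copies of the leptin receptor gene are defective throughout the body of db/db mice, a model of obesity with type 2 diabetes, whereas db/m mice carry 1 intact copy and served as the nondiabetic controls. Neither group carried any other allele or agent in the sources used here, which do not give the age at which these kidneys were taken. In acRIP-seq, mRNA fragments that carry N4-acetylcytidine (ac4C) are pulled down with an antibody (the IP library) and set beside an RNA-seq library of the same animal. Each of the 11 animals gave both, so there were 22 libraries.

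Ubiquitin is a small protein that is joined to other proteins through a relay of an activating enzyme (E1), a conjugating enzyme (E2) and a ligase (E3), and the ligase picks the substrate. Deubiquitinases take ubiquitin off again, and the proteasome, a core barrel capped by a regulatory particle, unfolds and degrades proteins that carry ubiquitin chains. In kidney tubules the system is known for setting the surface level of channels and transporters and for removing damaged proteins.

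The 268 peaks fell into 169 regions that do not overlap each other, because 94 regions were in both the list called in db/db mice (129 peaks) and the list called in db/m mice (139 peaks), and reads of such regions were counted in both. Of the genes, 95 had a single region and none had more than 3. The median peak spanned 241 bases of the genome, from 60 to 28801, and 77 spanned over 1000. A mean of 10 or more RNA-seq reads per library was reached by 194 peaks, and the other 74 were below it. The deposited FDR of the peak call was over 0.05 for 28 member peaks. A peak of Fbxo3 and a peak of Ube2d3 held 0 IP reads in every library. Not every listed peak is therefore a well-supported ac4C site. Another RefSeq gene overlapped 23 member peaks, and whether counting used strand is not given in the sources used here, so reads of the partner may be included. Among 183 member peaks of at most 1000 bases that could be placed in their gene, 31.7% were centred in the first 10% of the gene, 27.3% in the middle and 41.0% in the last 10%. Over all 6079 such peaks of the series the shares were 23.3%, 41.1% and 35.6%.

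Reads summed over all peaks ranged from 7577171 to 10293757 in the IP libraries and from 3151035 to 3352535 in the RNA-seq libraries. The 9857 peaks formed 6414 regions, and reads in overlapping peaks were counted in each of them. One control animal and 1 diabetic animal stood apart from their groups. Animal db/m 2 had the highest RNA-seq value of the 11 animals in 30.6% of member peaks and in 19.9% of all peaks. In IP the same animal was highest in 26.1% of member peaks and 19.3% of all peaks. Levels are given in CPM, the read count scaled to a common library size of reads in peaks. These sizes were adjusted by TMM (trimmed mean of M-values) among libraries of the same type. The markers of proximal tubule had peaks in 6 of 9 listed genes. Their summed RNA-seq level was 2225 to 3009 CPM in db/db 1 to 5. It was 4504 CPM in db/db 6, inside the 4065 to 4617 CPM of db/m mice. The summed endothelial markers (3 of 4 genes with peaks) gave 882 CPM in db/db 6, 1363 to 1597 CPM in the other db/db mice and 644 to 819 CPM in db/m mice. Podocyte markers (4 of 5 genes with peaks) summed to 119.1 to 138 CPM in db/db 1 to 5, above all db/m mice at 77.6 to 90.6 CPM, and to 73.4 CPM in db/db 6, below them. None of the liver markers had a peak. Counts without each of these animals follow with the results.

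Promoter sequence is shown for genes whose RNA-seq reads were lower in db/db mice, taken from those whose 250 bases before a start site lie wholly before the annotated gene. RefSeq promoters of GRCm38.p6 were found for 99 of the 128 member genes (134 windows). Capitals mark matches on either strand. The GC box was searched as GGGCGG. The E-box, bound by helix-loop-helix factors, was searched as CACGTG. For the CCAAT box these 5 letters themselves were used. The antioxidant response element was searched as TGACNNNGC and the ETS motif as CCGGAAGT. No matches shown overlap one another.
Psmd6 (chr14:14120946-14121195, minus strand): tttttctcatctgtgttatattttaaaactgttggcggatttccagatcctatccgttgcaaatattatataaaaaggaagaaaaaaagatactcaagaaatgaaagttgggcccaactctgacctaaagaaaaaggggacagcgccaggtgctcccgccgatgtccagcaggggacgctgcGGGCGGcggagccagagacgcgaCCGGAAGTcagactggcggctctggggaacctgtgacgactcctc
Usp16 (chr16:87454735-87454984, plus strand): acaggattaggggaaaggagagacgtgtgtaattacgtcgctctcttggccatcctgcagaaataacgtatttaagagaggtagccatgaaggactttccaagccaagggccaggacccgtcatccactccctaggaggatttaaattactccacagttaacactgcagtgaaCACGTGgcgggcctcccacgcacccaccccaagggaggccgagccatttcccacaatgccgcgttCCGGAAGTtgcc
Rnf187 (chr11:58938907-58939156, minus strand): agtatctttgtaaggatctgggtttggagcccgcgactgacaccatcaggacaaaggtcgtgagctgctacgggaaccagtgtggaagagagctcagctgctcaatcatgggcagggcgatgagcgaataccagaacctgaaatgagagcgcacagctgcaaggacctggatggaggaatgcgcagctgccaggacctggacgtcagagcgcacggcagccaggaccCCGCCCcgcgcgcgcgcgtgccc
Cul9 (chr17:46546389-46546638, minus strand): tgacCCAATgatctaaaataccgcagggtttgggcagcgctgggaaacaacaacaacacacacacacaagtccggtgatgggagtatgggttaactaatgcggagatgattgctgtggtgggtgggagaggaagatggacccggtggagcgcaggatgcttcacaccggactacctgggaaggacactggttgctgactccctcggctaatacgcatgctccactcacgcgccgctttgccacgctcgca
Trim7 (chr11:48825888-48826137, plus strand): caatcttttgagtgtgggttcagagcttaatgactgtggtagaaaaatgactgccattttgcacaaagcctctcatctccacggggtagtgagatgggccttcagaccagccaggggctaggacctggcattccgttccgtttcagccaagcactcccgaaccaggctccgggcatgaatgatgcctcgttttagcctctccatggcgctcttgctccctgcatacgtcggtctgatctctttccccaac
Psmd6, a subunit of the proteasome regulatory particle, had a GC box and an ETS motif in this window, and the deubiquitinase gene Usp16 had an E-box and an ETS motif. Rnf187 had 1 GC box, Cul9 had 1 CCAAT box, and Trim7 had none of the 5 at this outermost start. The GC box was in 62.7% of 134 member windows, 56.6% of 4663 windows of genes with any peak and 32.7% of all 32851 windows. The ETS motif was in 8.21% of member windows, 5.28% of those with any peak and 2.88% of all. The CCAAT box was in 20.9%, 33.7% and 33.8%, the antioxidant response element in 14.2%, 11.1% and 10.2%, and the E-box in 9.70%, 8.06% and 6.02%. These are letter matches in 250 bases and were read as a description only.

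RNA-seq reads of this system were mostly lower where they differed. Of the 268 peaks, 32 (11.9%, 22 regions, 16 genes) differed by genotype at an adjusted p below 0.05 (edgeR, quasi-likelihood, Benjamini-Hochberg over all peaks), and 11.3% of all peaks did. The total was thus near the background, and the directions were uneven: 29 member peaks (10.8%) were lower in db/db mice, against 5.93% of all peaks, and 3 (1.12%) were higher, against 5.34% of all peaks. Without db/m 2 the test called 30 member peaks (28 lower), 29 of them among the 32, and without db/db 6 it called 35 (31 lower), with 30 of the 32. The lower genes were the ligases Trim7, Trim11, Trim63, Rnf5, Rnf10, Rnf11, Rnf145 and Rnf187, the cullin Cul9, the deubiquitinases Usp8, Usp16 and Usp34, and the proteasome subunits Psmd2 and Psmd6. The higher genes were Fbxo2 and Trim2. The median log2 fold change of member peaks was -0.11 (65.7% below 0), and that of all peaks was -0.0056 (50.5% below 0). With library sizes alone the medians were -0.04 and 0.07. Under the stricter rule, an absolute log2 fold change over 1 as well, 9 member peaks (3.36%) and 3.95% of all peaks were called. The 2 genotypes had no overlapping values in 23 member peaks (8.58%) and in 7.89% of all peaks. Because whole kidney was used, fewer cells of a type and less RNA per cell cannot be told apart. Proximal tubule markers were lower in 8 of 16 peaks, endothelial markers higher in 4 of 7 and podocyte markers higher in 1 of 8. Adipocyte markers (3 of 5 genes with peaks) summed to 3.998 to 6.67 CPM in db/db and 13.0 to 70.2 CPM in db/m mice, with 1 of 3 peaks lower. The part of these shifts in the member values was not tested.

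**Figure D1:**
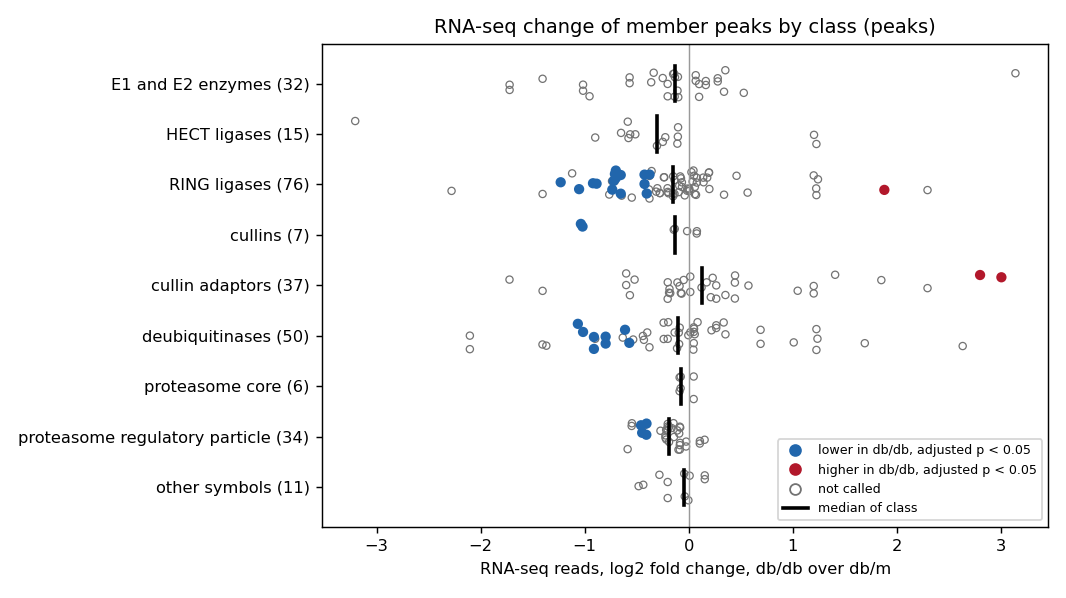
Each point is 1 of 268 member peaks, placed by its log2 fold change in RNA-seq reads (db/db over db/m, horizontal axis) within its class, with the number of peaks in brackets. Filled points passed the test; 15 RING ligase, 8 deubiquitinase, 4 regulatory particle and 2 cullin peaks lay to the left, and 2 cullin adaptor peaks and 1 RING ligase peak to the right.

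IP reads moved the same way in fewer peaks. At the same threshold 15 member peaks (5.60%, 11 regions, 7 genes) were called in IP reads, against 6.45% of all peaks. Of these, 14 (5.22%) were lower in db/db mice, against 3.38% of all peaks, and 1 (0.373%) was higher, against 3.07%. The split was 13 lower and 3 higher with library sizes alone and 20 lower and 4 higher with DESeq2. The lower genes were Usp8, Trim7, Rnf145, Rnf187, Cul9 and Psmd2, and the higher gene was Fbxo2. All 15 peaks were also called in RNA-seq reads with the same sign, and all 32 peaks called in RNA-seq reads had the same sign in IP reads. Leaving out db/m 5 brought the IP count to 8 and leaving out db/m 3 to 9, while 16 were called without db/m 2 and 21 without db/db 6. The stricter rule kept 6 peaks (2.24%), against 3.32% of all peaks. The genotypes did not overlap in 16 member peaks (5.97%) and in 5.77% of all peaks. The median IP change of members was -0.13 on the log2 scale (62.7% below 0), and that of all peaks was 0.0038 (49.0% below 0). With library sizes alone these medians were -0.04 and 0.10.

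**Figure D2:**
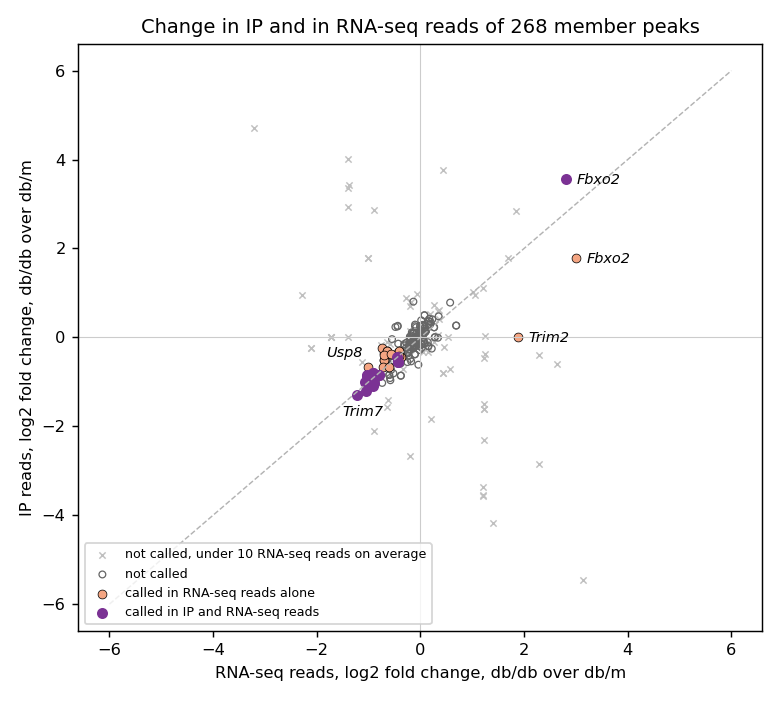
Each point is a member peak, with the log2 fold change (db/db over db/m) in RNA-seq reads on the horizontal axis and in IP reads on the vertical axis; the dashed line marks equal change. The 15 peaks called in both lie near that line, and the widely scattered crosses are peaks with under 10 RNA-seq reads on average.

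Among the RING ligases (76 peaks, 37 genes) 15 peaks of 8 genes were lower in RNA-seq reads and 1 was higher. Over all peaks 5.93% were lower and 5.34% higher. Some of the 15 overlap and share reads, as in Rnf187, so they are not independent. Enrichment of a class was not tested. Trim7, a TRIM-family ligase that binds glycogenin, the primer of glycogen synthesis, had 3 regions, and all 3 fell in both libraries. In the widest, chr11:48837953-48845607, the RNA-seq levels of db/m mice were 160, 228, 152, 164 and 166 CPM, and those of db/db mice ran from 46.1 over a median of 71.7 to 127 CPM. All db/m values lay above all db/db values, and db/db 6 held the highest db/db value. This RNA-seq level fell by 1.23 on the log2 scale (SE 0.20, edgeR adjusted p = 0.000324; two-sided exact permutation p = 0.00433 over 462 splits of the animals). IP levels of the region were 174, 195, 128, 129 and 121 CPM in db/m mice and 28.8, 56.8 and 94.6 CPM (lowest, median, highest) in db/db mice. The groups again did not overlap, and IP reads fell by 1.29 on the log2 scale (SE 0.24, edgeR adjusted p = 0.00255). The other Trim7 regions, chr11:48848091-48849542 and chr11:48851037-48851187, fell by 1.05 and 0.92 in RNA-seq reads on the log2 scale, and by 1.21 and 1.10 in IP reads. In these 2 regions the IP call was lost in 7 and 4 of the 11 fits that left out 1 animal.

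Rnf145, a ligase of the endoplasmic reticulum that takes part in sterol sensing, was lower in both regions at the end of its gene, while its region near the start held at most 0.571 CPM in RNA-seq and was not called. At chr11:44564171-44564411 the RNA-seq levels were 30.2, 37.2, 32.7, 42.8 and 38.7 CPM in db/m mice and 15.5, 19.3 and 23.5 CPM (lowest, median, highest) in db/db mice. No values overlapped, the fall was 0.89 on the log2 scale (SE 0.16, edgeR adjusted p = 0.000754), and the exact permutation p of 0.00216 is the smallest that these group sizes allow. IP reads of the region fell by 1.02 (SE 0.25, edgeR adjusted p = 0.0173), although 1 db/db value, 29.5 CPM, lay above the lowest db/m value of 29.0 CPM. This IP call was lost without db/m 5. The neighbouring region chr11:44564471-44564741 was lower in RNA-seq reads with a log2 fold change of -0.70 (edgeR adjusted p = 0.00625) and was not called in IP reads.

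Rnf187, a RING protein known as a coactivator of AP-1 transcription factors, had 1 long region, chr11:58934037-58938586. Its RNA-seq levels were 233, 212, 233, 249.5 and 250.3 CPM in db/m mice and ran from 152 over 175 to 209 CPM in db/db mice. IP levels were 260, 280, 286, 262 and 299 CPM in db/m mice and from 159 over 184 to 239 CPM in db/db mice. Neither library showed overlap of the groups. RNA-seq reads fell by 0.43 on the log2 scale (SE 0.11, edgeR adjusted p = 0.0140) and IP reads by 0.55 (SE 0.13, edgeR adjusted p = 0.0150), the IP call being lost without db/m 3 or without db/m 5. Rnf11, a ligase associated with endosomes, was called in RNA-seq reads alone at chr4:109454078-109454198. RNA-seq levels there were 39.2, 57.0, 47.1, 40.5 and 43.4 CPM in db/m mice and 21.4, 26.3 and 34.3 CPM in db/db mice, a fall of 0.74 on the log2 scale (SE 0.15, edgeR adjusted p = 0.00262). In IP reads its log2 fold change was -0.24 (SE 0.22, edgeR adjusted p = 0.602).

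The remaining lower ligases were called in RNA-seq reads alone. They were Rnf10, Rnf5 (an endoplasmic reticulum ligase), Trim11 and Trim63, the muscle ring-finger ligase also known as MuRF1. Log2 fold changes of their called peaks lay between -0.38 and -0.72. In Rnf10 1 of 2 regions was called, and in Trim63 1 of 2 overlapping peaks. RNA-seq reads of Trim11 ran from 36 to 58 in db/db mice and from 39 to 125 in db/m mice, with db/m 2 the highest. Trim2, a neuronal ligase, was the higher one: its peak chr3:84163643-84163913 held 30 RNA-seq reads over the 6 db/db mice and 6 over the 5 db/m mice. The ratio of read shares was 4.16 (95% exact interval 1.70 to 12.2, counting error only), and edgeR gave a log2 fold change of 1.88 (SE 0.53, adjusted p = 0.0273), a call that was lost with DESeq2 (adjusted p = 0.0543) and in 6 of the 11 fits that left out 1 animal (db/db 1, 4 or 5, or db/m 1, 2 or 3). The overlapping Trim2 peak of the db/db list was not called in RNA-seq reads (log2 fold change 1.24, SE 0.78, edgeR adjusted p = 0.346). The IP level of the Trim2 peak (mean ± SD) was 10.4 ± 2.88 CPM over 5 db/m and 10.5 ± 4.47 CPM over 6 db/db animals, with overlapping values.

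Among the deubiquitinases (50 peaks, 25 genes) 8 peaks of 3 genes were lower in RNA-seq reads and none was higher in that test, with 5 peaks, all in Usp8, lower in IP reads. Usp8 removes ubiquitin from receptors on endosomes, among them the epidermal growth factor receptor. All 3 of its regions fell in both libraries. At chr2:126742273-126742512 RNA-seq levels were 634, 1009, 799, 788 and 804 CPM in db/m mice and 304, 426 and 566 CPM (lowest, median, highest) in db/db mice. IP levels there were 452, 565, 495, 423 and 493 CPM in db/m mice and 212, 288 and 315 CPM in db/db mice. Every db/m value was above every db/db value in both libraries, with db/m 2 the highest control. RNA-seq reads fell by 0.91 on the log2 scale (SE 0.15, edgeR adjusted p = 0.000494, exact permutation p = 0.00433) and IP reads by 0.80 (SE 0.14, edgeR adjusted p = 0.000980, exact permutation p = 0.00216). The call in both libraries held in each fit that left out 1 animal. The neighbouring region chr2:126742571-126747565 fell by 0.80 in RNA-seq and 0.85 in IP reads on the log2 scale. The upstream region chr2:126725359-126732095 fell by 1.07 in RNA-seq and 1.001 in IP reads, the IP call being lost without db/db 5. Without db/m 2, whose RNA-seq level of 353 CPM stood above the 120 to 210 CPM of the other control mice in that region, the fall there was 0.78 in RNA-seq and 0.75 in IP reads.

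**Figure D3:**
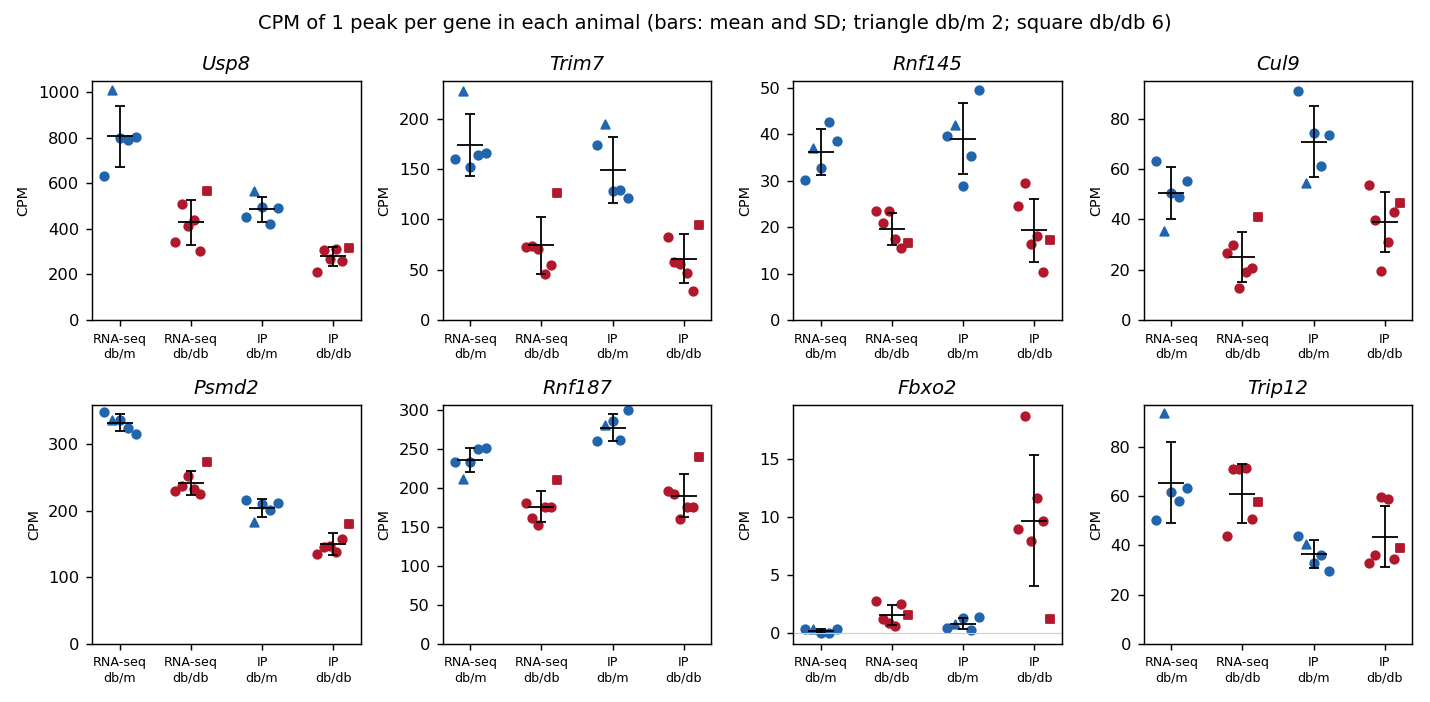
Points are the CPM of 1 peak per gene in each animal, for RNA-seq and IP libraries of 5 db/m (blue) and 6 db/db (red) mice, with horizontal bars for the mean and whiskers for the SD; triangles mark db/m 2 and squares db/db 6. The groups are apart for Usp8, Trim7, Psmd2 and Rnf187 in both libraries, Fbxo2 is near 0 in db/m mice, and Trip12 overlaps.

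Usp16, which removes ubiquitin from histone H2A, was lower in RNA-seq reads at chr16:87466258-87469844 with a log2 fold change of -0.61 (SE 0.14, edgeR adjusted p = 0.00802), and its IP change there was -0.66 (SE 0.27, edgeR adjusted p = 0.164). Usp34, a deubiquitinase of Wnt signalling, was called at chr11:23364016-23364136. RNA-seq levels of this peak were 7.38, 14.2, 7.52, 3.83 and 6.02 CPM in db/m mice and 3.64 to 3.998 CPM in db/db mice. The spread lay in the control group, and the log2 fold change was -1.02 (SE 0.28, edgeR adjusted p = 0.0254) but -0.68 without db/m 2, where it was no longer called (adjusted p = 0.0935). The wider Usp34 peak of the db/db list, chr11:23363957-23364136, contains this one and was not called in RNA-seq reads. It held 40 to 66 reads in db/db mice, 149 in db/m 2 and 40 to 66 in the other db/m mice.

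The cullins, scaffolds of multi-subunit ligases, were measured in Cul4a, Cul7 and Cul9 (7 peaks). Cul9, a large cullin that binds p53, was lower at the end of its gene. At chr17:46500845-46501772 RNA-seq levels were 63.2, 35.3, 50.4, 48.8 and 55.5 CPM in db/m mice and 12.6, 23.7 and 40.9 CPM (lowest, median, highest) in db/db mice. Only db/db 6 reached into the control range. RNA-seq reads fell by 1.02 (SE 0.23, edgeR adjusted p = 0.00547, exact permutation p = 0.00866) and IP reads by 0.86 on the log2 scale (SE 0.23, edgeR adjusted p = 0.0265), the IP call being lost in 5 of the 11 fits that left out 1 animal. A second Cul9 region in the middle of the gene, chr17:46519876-46520165, had log2 fold changes of -0.13 in RNA-seq and 0.09 in IP reads, neither called.

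Cul7, the scaffold of a ligase with Fbxw8, had higher IP values in every db/db mouse. Its region chr17:46661720-46662151 had IP levels of 71.9, 65.7, 76.2, 65.3 and 76.1 CPM in db/m mice and 81.3, 99.95 and 123 CPM in db/db mice, with no overlap. RNA-seq levels overlapped, at 50.2 CPM ± 7.83 in 5 db/m animals and 52.9 CPM ± 7.44 in 6 db/db animals (mean ± SD). Over all peaks neither the IP change (log2 0.50, SE 0.15, edgeR adjusted p = 0.0644) nor the change relative to RNA-seq reads (log2 0.42, SE 0.16, adjusted p = 0.551) passed the threshold.

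The cullin adaptors, which hold the substrate, counted 37 peaks in 22 genes, and their 2 RNA-seq calls and 1 IP call were all in Fbxo2 and all higher in db/db mice. Fbxo2 recognises proteins with high-mannose sugar chains and is known chiefly from neurons. Its peak chr4:148164164-148164253 held 2 to 9 RNA-seq reads in each db/db mouse and 0 or 1 in each db/m mouse. The totals of 31 and 3 reads gave a ratio of read shares of 8.60 (95% exact interval 2.68 to 44.0, counting error only), and edgeR gave a log2 fold change of 2.80 (SE 0.66, adjusted p = 0.00823). IP levels were 0.407, 0.742, 1.32, 0.218 and 1.34 CPM in db/m mice and 1.24, 9.28 and 18.7 CPM (lowest, median, highest) in db/db mice. The lowest of these, db/db 6, was the only db/db value within the control range, and the IP rise was 3.57 on the log2 scale (SE 0.61, edgeR adjusted p = 0.00101). The second Fbxo2 peak, chr4:148160651-148160711, rose by 3.01 in RNA-seq reads (SE 0.61, edgeR adjusted p = 0.00240), with 56 reads over db/db and 5 over db/m mice. Its IP log2 fold change of 1.79 (SE 0.65) was not called (edgeR adjusted p = 0.116). Fbxo2 was below the count filter that removes low peaks, so no Fbxo2 call exists under that filter in RNA-seq reads.

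In the proteasome regulatory particle (34 peaks, 18 regions, 12 genes) 4 peaks of Psmd2 and Psmd6 were lower in RNA-seq reads. The share of all peaks called lower was 5.93%. Of the 34 log2 fold changes 31 were below 0, with a median of -0.19. Overlapping peaks share reads, so the 34 are not independent. With library sizes alone 29 of the 34 were below 0 and the median was -0.11. The members above 0 were 3 peaks of Psmd4, a ubiquitin receptor. Psmd2, which forms the docking base of the particle, had RNA-seq levels of 348, 336, 337, 324 and 315 CPM in db/m mice at chr16:20660002-20661589 and 224, 235 and 273 CPM (lowest, median, highest) in db/db mice. IP levels there were 216, 183, 210, 201 and 211 CPM in db/m mice and 134, 146 and 179 CPM in db/db mice. The groups did not overlap in either library. RNA-seq reads fell by 0.46 on the log2 scale (SE 0.10, edgeR adjusted p = 0.00384, exact permutation p = 0.00216). IP reads fell by 0.44 (SE 0.13, edgeR adjusted p = 0.0452), a call at the edge of the threshold that was lost in 9 of the 11 fits that left out 1 animal and with library sizes alone (adjusted p = 0.101). The Psmd2 region at the start of the gene, chr16:20651652-20652635, had a log2 fold change of -0.55 in RNA-seq reads (edgeR adjusted p = 0.0578) and was not called. Psmd6 was lower at chr14:14120019-14120775, with a log2 fold change of -0.41 (SE 0.11, edgeR adjusted p = 0.0257) in RNA-seq and -0.31 (SE 0.16, adjusted p = 0.297) in IP reads. The proteasome core was measured in Psma4, Psma7 and Psmb5 (6 peaks), and none was called. The Psma4 peak had RNA-seq levels (mean ± SD) of 1025 ± 117 CPM over 5 db/m and 965 ± 91.4 CPM over 6 db/db animals.

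The HECT ligases, which take ubiquitin onto themselves before passing it on, had no called peak among 15 in 7 genes (10 regions). Of their 15 RNA-seq log2 fold changes 13 were below 0 (median -0.31). These 13 include all 5 peaks of Trip12, each of which rose above 0 without db/m 2. Trip12, which degrades fusion proteins and restrains the spread of ubiquitin on damaged chromatin, had 5 peaks in 3 regions. At chr1:84743156-84743874, toward the end of the gene, RNA-seq levels were 50.4, 93.9, 61.8, 58.1 and 63.4 CPM in db/m mice and 43.7, 64.2 and 71.5 CPM in db/db mice. IP levels were 43.7, 40.7, 32.8, 36.0 and 29.4 CPM in db/m mice and 33.0, 37.5 and 59.7 CPM in db/db mice. Both overlapped, with log2 fold changes of -0.10 (SE 0.17, edgeR adjusted p = 0.737) in RNA-seq and 0.25 (SE 0.21, adjusted p = 0.550) in IP reads. The neighbouring region chr1:84744742-84745063 had log2 fold changes of -0.11 (SE 0.23) and -0.03 (SE 0.23). The third region, chr1:84838694-84840240 near the start, also overlaps Fbxo36, and there the RNA-seq level was 17.0 CPM in db/m 2 and 2.62 to 4.12 CPM in the other control mice. Its RNA-seq log2 fold change of -0.51 (SE 0.43) became 0.38 without db/m 2, and those of the other 2 regions also turned, to 0.07 and 0.16. Without db/m 2 the IP change of the middle region turned to 0.20. No direction is therefore given for Trip12.

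Huwe1, a large HECT ligase, showed the same animal apart. At chrX:151906961-151907392 its RNA-seq levels were 60.3, 227, 82.4, 67.3 and 95.7 CPM in db/m mice and 44.9, 57.6 and 145 CPM in db/db mice. IP levels were 53.7, 382, 127, 99.4 and 143 CPM in db/m mice and 53.6, 86.2 and 127 CPM in db/db mice. The groups overlapped in both libraries, and neither change was called.

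The E1 and E2 enzymes (32 peaks, 15 genes) had no called peak in IP or in RNA-seq reads. Ube2k, an E2 that builds ubiquitin chains, had the most IP reads of the class. Mean RNA-seq levels (± SD) were 206 ± 14.8 CPM over 5 db/m and 216 ± 15.4 CPM over 6 db/db animals, and mean IP levels 326 ± 43.1 and 347 ± 31.7 CPM. Ube2q1 had low RNA-seq levels of 6.42, 7.56, 6.22, 6.06 and 6.02 CPM in db/m mice and 3.45, 4.52 and 4.82 CPM in db/db mice at chr3:89773616-89773796. These did not overlap, and the edgeR adjusted p over all peaks was 0.0910.

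No member peak was called for a change in IP reads relative to RNA-seq reads, which does not show that none changed. Of 268 tested, 0 passed an adjusted p of 0.05, and 0.0304% of all peaks did. At an unadjusted p below 0.05 there were 20 member peaks with edgeR (12 up and 8 down, 7.46% of members against 6.76% of all), 15 with limma on the per-animal differences and 10 with DESeq2. Among the lowest p-values were those of Trim44, a TRIM protein that counters ubiquitination, at chr2:102400127-102400545. IP levels of this region were 317, 2241, 530, 425 and 517 CPM in db/m mice and 239, 383 and 835 CPM (lowest, median, highest) in db/db mice. RNA-seq levels were 151, 474, 180, 165 and 181 CPM in db/m mice and 117, 153 and 304 CPM in db/db mice. The relative log2 fold change was -0.26 (SE 0.09, edgeR adjusted p = 0.506), and it was -0.08 without db/m 2 and -0.39 without db/m 1, the single fit in which the region was called (adjusted p = 0.0329).

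**Figure D4:**
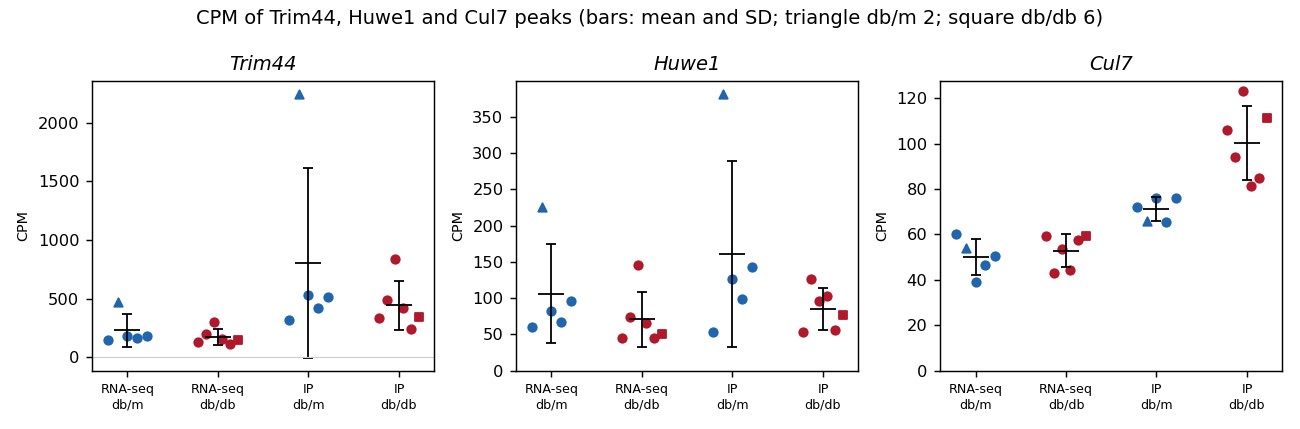
Points are the CPM of 1 peak each of Trim44, Huwe1 and Cul7 in every animal (blue db/m, red db/db), with the mean and SD; triangles mark db/m 2 and squares db/db 6. In Trim44 and Huwe1 the wide db/m spread comes from db/m 2, and in Cul7 the IP values of the groups are apart while RNA-seq values overlap.

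The level of IP over RNA-seq was described as log2 of (IP CPM + 1) over (RNA-seq CPM + 1), averaged over 11 animals, with no test. Each library was scaled to its own reads in peaks, adjusted by TMM within IP and within RNA-seq libraries. The level thus places peaks relative to one another. A value of 0 or below therefore does not show that a peak lacked enrichment. Its median was 0.16 over the 268 member peaks and 0.11 over all peaks. Among the 194 member peaks with a mean of 10 or more RNA-seq reads the median was 0.11, with 0.65 for E1 and E2 enzymes, 0.51 for cullins, 0.44 for cullin adaptors, 0.19 for deubiquitinases, -0.05 for RING ligases, -0.10 for HECT ligases, -0.22 for the proteasome core and -0.29 for the regulatory particle. The highest was Ube2q1, an E2, with a mean of 3.29 (SD 0.26, range 2.86 to 3.64 over 11 animals) at the low-expressed region named above. Fbxw4, an F-box adaptor, followed with 2.82 (SD 0.51). The lowest was a region of Ubap2l, a ubiquitin-associated RNA-binding protein, at chr3:90052380-90052628 with -3.66 (SD 0.98), where 21.5 CPM in RNA-seq stood against 1.04 CPM in IP in db/db mice and the protein-coding gene 4933434E20Rik overlaps. Usp24, a deubiquitinase, had -1.39 (SD 0.84) at chr4:106439166-106439226, with 5 to 53 IP and 16 to 30 RNA-seq reads per library. A wider Usp24 peak that contains it, chr4:106439137-106439226, held 87 to 170 IP and 33 to 65 RNA-seq reads.

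**Figure D5:**
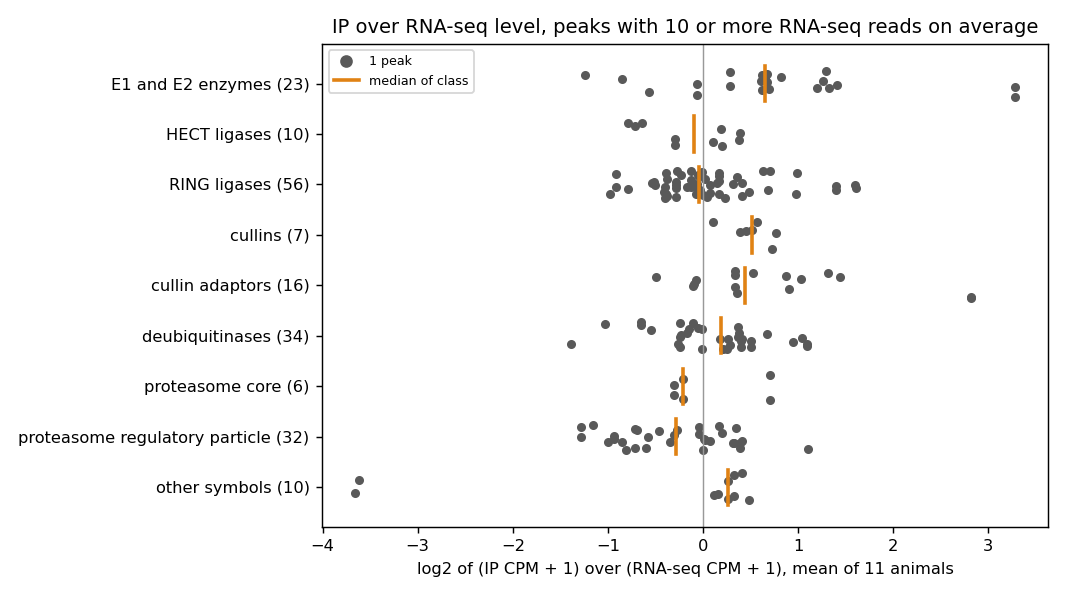
Each point is 1 of 194 member peaks with a mean of 10 or more RNA-seq reads, placed by its log2 of (IP CPM + 1) over (RNA-seq CPM + 1), mean of 11 animals; orange bars are class medians. E1 and E2 enzymes have the highest median, 0.65, and the regulatory particle the lowest, -0.29, with wide overlap between classes.

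Other genes of the pathway whose symbols fell outside the member rule (90 listed, such as ubiquitin genes, further ligases, the COP9 signalosome and proteasome activators) had 76 peaks in 37 genes. In RNA-seq reads 4 peaks were lower, in the proteasome assembly chaperone gene Psmg1 and in Vcp, the ATPase that extracts ubiquitinated proteins, and 3 were higher, in Nfe2l2 and in the proteasome activator Psme1. Over all peaks 5.93% were lower and 5.34% higher, so neither count of the 76 was above the background. The Vcp peaks had log2 fold changes of -0.68 (SE 0.17) and -0.72 (SE 0.18), both with an edgeR adjusted p of 0.0137, and the Psmg1 peaks -0.49 (SE 0.14, adjusted p = 0.0274). Nfe2l2, the transcription factor that binds the antioxidant response element, rose by 0.74 in RNA-seq reads (SE 0.15, edgeR adjusted p = 0.00251) and by 0.92 in IP reads (adjusted p = 0.00335), and Psme1 by 0.54 and 0.55 in RNA-seq reads (adjusted p = 0.0152 and 0.0131).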

How the data were processed

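ac4C IP and RNA-seq libraries of kidneys from 6 db/db and 5 db/m mice were compared, with groups taken from the sample titles. The authors selected mRNA, fragmented it, immunoprecipitated it with an ac4C antibody and sequenced both library types. Positions fit GRCm38, the build in the submitters' processing notes. The aligner, peak caller and counting tool are not given in the sources used here. The deposited counts are whole numbers of reads in each peak for each library and were not normalized. The deposited fold enrichment is a linear ratio per peak that entered no test here, and the deposited FDR is the adjusted p-value of the peak call; its unadjusted column was not used. Columns with the authors' own genotype comparison were not used.

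Counts were fitted in R 4.3.3 with edgeR 4.0.16 (TMM, glmQLFit, glmQLFTest) over all 9857 peaks, IP and RNA-seq separately with genotype as the term, and IP relative to RNA-seq as an interaction with the animal as a term. In that last fit edgeR moved the spread of every peak fully to the common trend. p-values were adjusted by Benjamini-Hochberg, with a threshold of 0.05. SE is the fold change over the square root of F. Single peaks also had two-sided exact permutation tests on log2(CPM + 1) over 462 splits (Python 3.11.15, numpy 2.4.6, scipy 1.17.1, pandas 2.3.3). The fits were tested on simulated data with 200 of 9857 peaks changed. They recovered 56% of these in IP, 64% in RNA-seq and 65% in the relative comparison. False calls were 4, 0 and 3, and no recovered change had the wrong sign. The simulated peaks all had the same spread within a comparison, unlike the data. Replicate libraries differed by more than sampling noise in each pair compared. A count of 0 allows up to 3 reads, for counting error only. Without the TMM adjustment this is 0.291 to 0.396 CPM in IP and 0.895 to 0.952 CPM in RNA-seq libraries.

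Peaks called under the stricter rule, the 10 lowest p-values in RNA-seq and in IP reads, the 5 lowest in the relative fit, the 3 highest and lowest IP levels, the peak with most IP reads per class and Trip12 were named by rule; other genes named were called or were chosen after their values were seen. Some items are counted in the totals but not reported here by name. The members and lists were chosen with earlier results of these data known. Alternatives were DESeq2 1.42.0, limma 3.58.1 on per-animal differences, library sizes alone, a low-count filter, peaks of at most 1000 bases, 1 peak per region, leaving out each animal and a block of animal numbers.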

Additional observations from a re-analysis of the deposited data

Results flagged for a closer look

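A single animal lay far from its group in 29 of 158 tests over the 40 named peaks (a gap of the outermost animal above the 95% critical share of the group's range), where chance gives about 1 in 20, or 7.9. Many of these tests share reads. In 17 of the 29 the animal was db/m 2. Its RNA-seq level was 17.0 and 17.3 CPM in the 2 start peaks of Trip12, 228 CPM in Trim7, 474 CPM in Trim44, 7.56 CPM in Ube2q1 and 227 CPM in Huwe1, each the highest of the db/m mice. Its IP level was 15.9 CPM in Usp34, 224 CPM in the upstream region of Usp8, 2241 CPM in Trim44, 103 CPM in Ube2q1, 88.3 CPM in Fbxw4, 382 CPM in Huwe1 and 227 CPM in the Ubap2l peak with most IP reads. Animal db/db 6 had the highest db/db value in RNA-seq reads of Trim7 in 2 regions, 127 and 47.6 CPM, and in IP reads of Usp8, 94.9 CPM in both peaks of chr2:126742571-126747565. Animal db/m 1 had a low IP level of 16.9 CPM in Rnf11. It had high IP levels of 3.36 and 2.85 CPM in the 2 Ubap2l peaks with a low IP over RNA-seq level. In these 2 peaks db/db 5 was also high, at 4.25 CPM in each. Animal db/db 1 was high in IP reads of Trim7, 21.6 CPM at chr11:48848091-48849542, and db/db 3 in RNA-seq reads of Huwe1, 145 CPM.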

How the results depend on the processing

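The IP count of 15 member peaks was 24 with DESeq2 (11.7% of all peaks called), 7 among peaks of at most 1000 bases, and 8 to 21 with 1 animal left out. The RNA-seq count of 32 was 21 among peaks of at most 1000 bases, 21 with 1 peak per region, and 24 to 35 with 1 animal left out. The first of these RNA-seq settings tests 191 member peaks and the second 167. The relative count of 0 was 0 to 2 with 1 animal left out. The median IP over RNA-seq level of 0.16 was 0.11 among peaks with 10 or more RNA-seq reads on average, 0.25 among peaks of at most 1000 bases, and 0.15 to 0.17 with 1 animal left out. All other counts under the alternatives were within 1.5 times, and the low-count filter gave 31 RNA-seq calls, all lower. Same-numbered animals share only a number: correlations of their deviations ran from -0.257 to 0.24 in IP and from -0.387 to 0.494 in RNA-seq libraries. With the replicate block 19 IP peaks, 42 RNA-seq peaks and 0 relative peaks were called. Of 548 alternative fits of the 34 called values of named peaks, 500 kept direction and call, 48 kept direction and lost the call, and 0 reversed. Fits that did not test the peak are not among the 548, and a missing adjusted p was counted as a kept call. Some of the 34 share their reads with an overlapping peak, and most were named for low p-values. Reversals were in Trip12, which was not called. The IP value of its middle region, -0.03, was 0.073 with library sizes alone, 0.0021 with 1 peak per region, 0.12 with the replicate block and -0.13 to 0.20 with 1 animal left out. Its RNA-seq values ran with 1 animal left out from -0.19 to 0.066 and -0.20 to 0.074 (end region, by peak), -0.26 to 0.16 (middle region), and -0.70 to 0.38 and -0.75 to 0.35 (start region). The cause was not tested. RNA-seq reads summed over all peaks, overlapping peaks included, were 3151035 to 3352535 per library. At this depth 74 member peaks held under 10 reads on average, and their changes were not detectable unless large.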
